A study of Mus musculus with 2 samples.

Results

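The collagen and laminin genes are the mouse genes whose symbols have the form Col, a number, a and a number, or Lama, Lamb or Lamc and a number. There are 55 of them among the 27998 genes of the deposited matrices. Of these, 42 had at least 30 unique molecular identifiers (UMIs, each standing for 1 captured RNA molecule) over both libraries and are described here. The other 13 (Col2a1, Col4a6, Col6a4, Col6a5, Col8a2, Col9a1, Col9a2, Col11a1, Col17a1, Col19a1, Col22a1, Col26a1 and Col28a1) had between 2 and 21 UMIs in all and are named only. The values were counts of nuclear RNA from droplet-based single-nucleus sequencing of liver.

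The study compared 12-week-old Sox9f/f mice (C57BL/6), which carry a conditional allele of the transcription factor gene Sox9, with Sox9HKO mice of the same strain and age. Partial hepatectomy (PHx), an operation that takes out liver lobes so that the rest regrows, came 48 h before the livers were collected in both. The sample titles call the groups WT and HKO; the labels do not spell out HKO, name no Cre driver and give no number of animals per library, and their genotype field holds an age. Each group is 1 library, so no difference between them has a replicate check, genotype cannot be told apart from library, animal or preparation, and no test between groups was possible. Intervals in parentheses are 95% intervals that cover counting error only: exact Poisson for a level, exact conditional for a ratio of the libraries and exact Clopper-Pearson for a share.

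Collagens are triple-helical proteins of the extracellular matrix. Fibrillar collagens (types I, III and V among them) assemble into the cable-like fibres that give liver its tensile strength and accumulate in scars, whereas type IV collagen and the laminins, cross-shaped trimers of an alpha, a beta and a gamma chain, build the sheet-like basement membranes under bile ducts and around vessels. The sinusoids of normal liver have only a thin, discontinuous matrix, and hepatic stellate cells, the vitamin A-storing pericytes of the sinusoid, are the best known source of fibrillar collagen in liver.

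The HKO library held 14902 nuclei after quality filters (median 3285 UMIs) and the WT library 14515 (median 3423 UMIs), and 70 cell barcodes occurred in both. The low end of depth was unlike. The deposited barcode with the fewest UMIs had 1181 in HKO and 1968 in WT, and 3855 HKO and 286 WT nuclei had fewer than 2000. Nuclei were grouped into clusters without use of the collagen and laminin genes, and 8 classes were named from marker genes. Stellate-like nuclei numbered 1171 in HKO and 628 in WT, endothelial-like 2315 and 1111, macrophage-like 1801 and 1082, hepatocyte-like 4528 and 9611, and cholangiocyte-like 121 and 31. A further 3 clusters stayed unnamed with 4352 and 1875 nuclei, most of them a haemoglobin-led cluster with 4029 HKO and 18 WT nuclei and a cluster led by mitochondrial genes with 59 and 1801. In the haemoglobin-led cluster, 14 of the 15 hepatocyte markers stood above their level in the HKO nuclei of cluster 0 and the clusters of other classes. In the mitochondrial one, 9 of the 15 stood above the WT level of the clusters placed before it, hepatocyte-like cluster 0 among them. Both are left out of the hepatocyte-like class, whose numbers are therefore not totals of nuclei with hepatocyte markers. An alternative analysis counted both as hepatocyte-like. Hepatocyte-like nuclei came mostly from clusters 3 and 10 in HKO and from clusters 0 and 8 in WT, and macrophage-like nuclei from cluster 6 in HKO and cluster 9 in WT. Stellate-like and endothelial-like nuclei were 1 cluster each, although most of their sub-clusters came from 1 library. Summed hepatocyte markers stood in stellate-like nuclei at 80.3% (HKO) and 91.4% (WT) of their hepatocyte-like level. The shares were 88.8% and 96.3% in endothelial-like nuclei and 86.0% and 87.1% in macrophage-like nuclei. Free RNA from hepatocytes was not removed from the class levels, apart from an alternative that subtracted the hepatocyte-like level. Sox9 itself stood at 6.08 CPM (UMIs scaled to a class total of 1e+06; 5.07 to 7.24, 127 UMIs) in hepatocyte-like HKO nuclei and at 11.4 CPM (10.4 to 12.4, 490 UMIs) in WT; in endothelial-like nuclei it stood at 5.90 and 9.02 CPM, a level similar to that of hepatocyte-like nuclei in each library.

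Stellate-like nuclei were the leading class of most fibrillar genes and of some basement membrane genes, the leading class being the named class with the highest level averaged over the libraries. They led 19 of the 42 genes, cholangiocyte-like nuclei 11, hepatocyte-like nuclei 5, endothelial-like, macrophage-like and T/NK-like nuclei 2 each, and B-like nuclei 1. The leading class was the same in both libraries for 33 of the 42. For 9 genes, 6 of them led by the small cholangiocyte-like class, the leading class held fewer than 10 UMIs, so that its rank there rests on a handful of molecules.

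**Figure D1:**
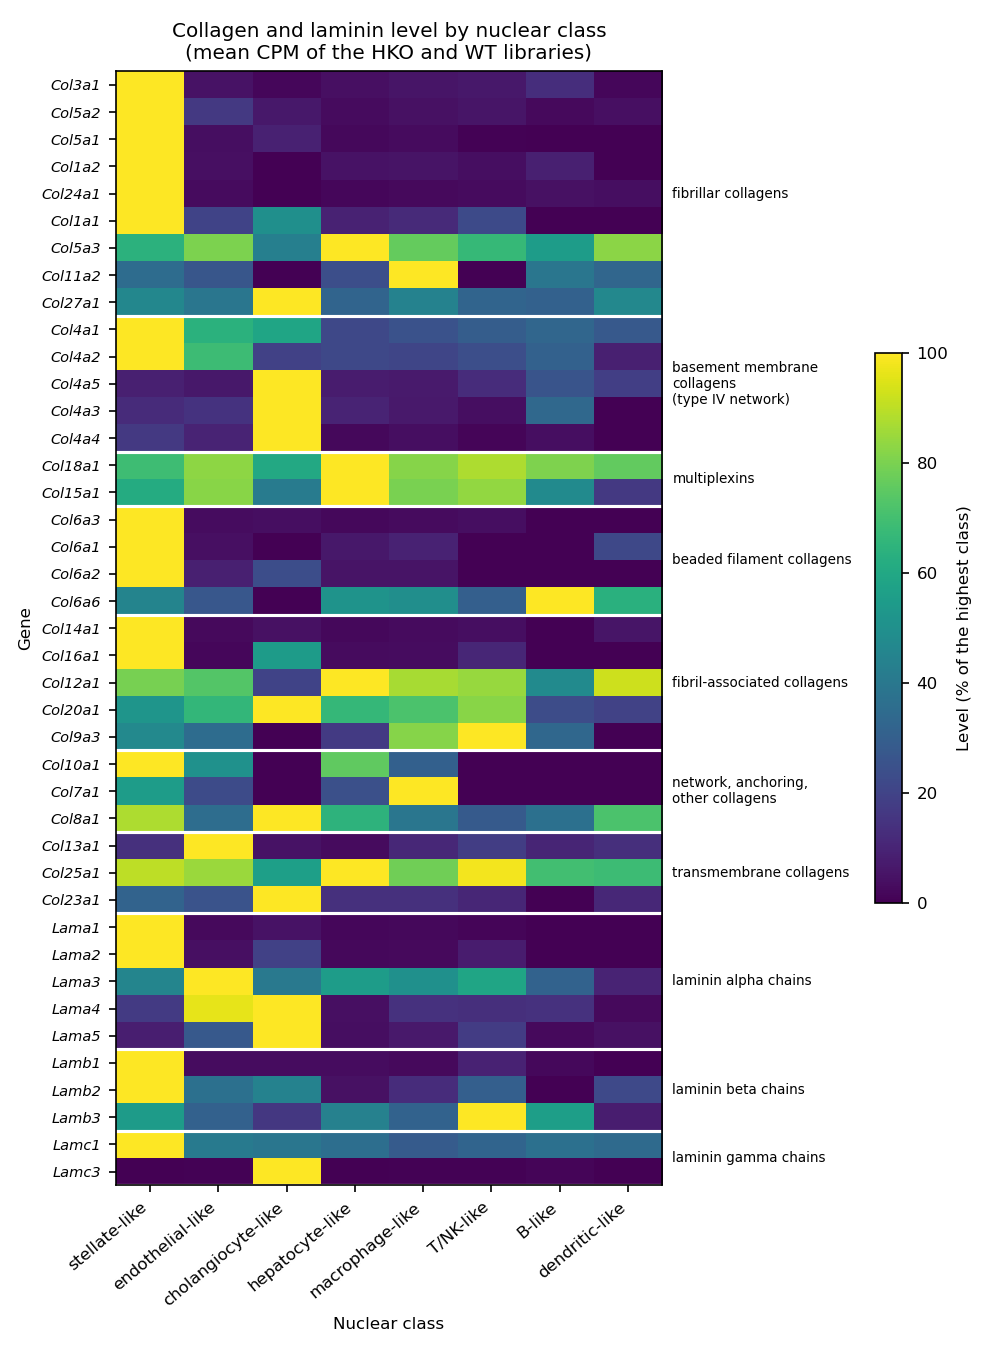
Each row is a collagen or laminin gene with at least 30 UMIs (1 of the 42 is not shown), each column a nuclear class, and the colour gives the level (mean CPM of the HKO and WT libraries) as a percentage of that gene's highest class, with genes grouped by structural type. Stellate-like nuclei carry the highest level of 19 of the 42 genes, among them 6 of the 9 fibrillar collagens, and cholangiocyte-like nuclei that of 3 of the 5 type IV chains.

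Of the 9 fibrillar genes described, stellate-like nuclei led 6: Col1a1, Col1a2, Col3a1, Col5a1, Col5a2 and Col24a1. The exceptions were Col5a3 (hepatocyte-like), Col11a2 (macrophage-like) and Col27a1 (cholangiocyte-like). Of the 5 type IV genes, stellate-like nuclei led Col4a1 and Col4a2, which encode the chains of the most widespread type IV network, and cholangiocyte-like nuclei led Col4a3, Col4a4 and Col4a5, which encode the chains of specialised basement membranes such as that of the kidney glomerulus. The laminin chains were divided among 4 classes. Stellate-like nuclei led Lama1, Lama2, Lamb1, Lamb2 and Lamc1, endothelial-like nuclei Lama3, cholangiocyte-like nuclei Lama4, Lama5 and Lamc3, and T/NK-like nuclei Lamb3. Stellate-like nuclei also led the type VI genes Col6a1, Col6a2 and Col6a3, the fibril-associated Col14a1 and Col16a1, and Col10a1, the last with only 4 and 3 UMIs in that class.

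The 250 bases before the start site are shown for 3 genes whose classes or library ratios the results turn on: Col3a1, the stellate-led type III collagen; Col13a1, the endothelial-led transmembrane collagen; and Col8a1, the gene with the largest library ratio. Sequences are from RefSeq on build GRCm38.p6, in the direction of transcription, and the promoter table matched 40 of the 55 genes. Capitals mark the motifs found in each window, on either strand. Col3a1 lies on the plus strand (chr1:45311288-45311537), and Col13a1 (chr10:61979109-61979358) and Col8a1 (chr16:57754738-57754987) lie on the minus strand.
Col3a1: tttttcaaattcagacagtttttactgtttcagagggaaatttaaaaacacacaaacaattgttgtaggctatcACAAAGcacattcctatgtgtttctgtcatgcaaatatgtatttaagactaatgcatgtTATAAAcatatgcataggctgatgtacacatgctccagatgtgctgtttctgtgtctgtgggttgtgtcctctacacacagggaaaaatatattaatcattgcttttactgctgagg
Col13a1: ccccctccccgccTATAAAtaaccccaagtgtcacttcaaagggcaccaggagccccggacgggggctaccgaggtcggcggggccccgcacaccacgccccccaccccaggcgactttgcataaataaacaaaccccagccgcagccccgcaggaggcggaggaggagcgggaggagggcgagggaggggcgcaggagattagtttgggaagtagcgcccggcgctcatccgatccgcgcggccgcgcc
Col8a1: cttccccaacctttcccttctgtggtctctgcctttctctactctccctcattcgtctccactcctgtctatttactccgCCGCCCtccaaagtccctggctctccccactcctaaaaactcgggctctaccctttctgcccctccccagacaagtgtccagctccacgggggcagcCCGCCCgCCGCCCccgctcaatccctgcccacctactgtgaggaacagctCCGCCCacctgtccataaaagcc

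The motifs searched, each on both strands of these windows, were a TATA box, a CCAAT box, a GC box and a pair of short sequences of the kind that SOX proteins can bind. The GC box, written GGGCGG on one strand and CCGCCC on the other, occurred 4 times in the Col8a1 window and in 24 of the 44 windows of collagen and laminin genes, against 32.7% of all 32851 windows. The TATA box, searched as TATAAA, occurred in 5 of the 44 windows, Col3a1 and Col13a1 among them, against 12.4% of all. These matches begin at positions -117 (Col3a1) and -237 (Col13a1) from the start site, and whether either acts as a TATA box was not tested. The CCAAT box occurred in 14 windows, against 33.8% of all. Of the SOX-type sequences, ACAAAG occurred in 4 windows, against 16.5%, while the other, searched as ACAATG, occurred in 1, against 10.7%. A match is a run of letters and not evidence of binding. The type IV genes sit in head-to-head pairs: the start sites of Col4a1 and Col4a2 lie 21 bases apart on chromosome 8 (11312826 and 11312805), those of Col4a3 and Col4a4 lie 72 bases apart on chromosome 1 and those of Col4a5 and Col4a6 lie 1309 bases apart on chromosome X. The annotated transcripts of Col4a1 and Col4a2 therefore overlap by 22 bases at their starts, on opposite strands.

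Among the fibrillar genes of stellate-like nuclei, Col3a1 and Col1a1 stood lower in the HKO library and the others differed little. Col3a1, the chain of type III collagen, was at 77.4 CPM in the HKO library (69.5 to 86.0, 348 UMIs) and 121 CPM in the WT library (109 to 135, 328 UMIs). The levels of Col3a1 did not overlap within counting error, with an HKO to WT ratio of 0.638 (0.547 to 0.744). In hepatocyte-like nuclei, which are not known to make it, Col3a1 stood at 2.01 (HKO) and 5.97 CPM (WT). Col1a1, which encodes the main chain of type I collagen, was at 7.12 CPM in the HKO library (4.87 to 10.0, 32 UMIs) and 12.6 CPM in the WT library (8.72 to 17.6, 34 UMIs). Its ratio was 0.566 (0.338 to 0.945), from few molecules. Col1a2, the partner chain of type I collagen, was at 32.0 CPM in the HKO library (27.0 to 37.7, 144 UMIs) and 39.6 CPM in the WT library (32.5 to 47.9, 107 UMIs). The interval of the Col1a2 ratio included 1, at 0.809 (0.625 to 1.05).

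The type V chains, which start and limit the diameter of fibres, showed no gap between the libraries beyond counting error. Col5a2 was at 77.2 CPM in the HKO library (69.3 to 85.7, 347 UMIs) and 78.5 CPM in the WT library (68.3 to 89.8, 212 UMIs), a ratio of 0.984 (0.827 to 1.17). Col5a1 was at 47.8 CPM in the HKO library (41.6 to 54.7, 215 UMIs) and 58.5 CPM in the WT library (49.7 to 68.3, 158 UMIs), a ratio of 0.818 (0.663 to 1.01). Col24a1, a fibrillar collagen known best from bone, was at 38.5 CPM in the HKO library (33.0 to 44.7, 173 UMIs) and 45.2 CPM in the WT library (37.5 to 53.9, 122 UMIs), and its ratio was 0.852 (0.672 to 1.08). Summed over these 6 genes, fibrillar collagen took 280 CPM (265 to 296, 1259 UMIs) of stellate-like RNA from HKO against 356 CPM (334 to 379, 961 UMIs) from WT, a ratio of 0.787 (0.723 to 0.857). The same sum was 6.85 and 14.5 CPM in hepatocyte-like nuclei and 20.6 and 28.2 CPM in endothelial-like nuclei.

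The summed level of the stellate identity genes moved in the same direction, and its part in that gap was not tested. The summed level of the 12 stellate marker genes in stellate-like nuclei was 1749.7 CPM in HKO and 2035 CPM in WT, a ratio of 0.860. Ratios of the single markers ran from 0.705 to 1.66, with a median of 0.853, so not all were lower. Set against those markers, the fibrillar sum was 16.006 UMIs per 100 marker UMIs (15.1 to 17.0) in HKO and 17.5 (16.3 to 18.7) in WT, so the intervals overlapped on this scale. Stellate-like nuclei were also shallower in HKO (median 2285 UMIs) than in WT (median 3066 UMIs). When each nucleus was thinned to 1500 UMIs, which left out 202 HKO nuclei, 37.4% (34.3 to 40.5) of 969 HKO and 39.0% (35.2 to 43.0) of 628 WT stellate-like nuclei carried a UMI of any of the 6 genes. Unthinned, the shares were 55.3% and 65.0%, and the thinned shares in hepatocyte-like nuclei, given as the background level, were 1.22% and 2.42%.

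Basement membrane genes of stellate-like nuclei did not move together. Col4a1, the alpha1 chain of type IV collagen, was at 136 CPM in the HKO library (125 to 147, 610 UMIs) and 106 CPM in the WT library (94.3 to 119, 287 UMIs). Its ratio was 1.28 (1.11 to 1.47), higher in HKO. Col4a2, the chain that pairs with it, was at 95.6 CPM in the HKO library (86.8 to 105, 430 UMIs) and 85.5 CPM in the WT library (74.8 to 97.3, 231 UMIs), and the interval of its ratio included 1, at 1.12 (0.951 to 1.32). Together Col4a1 and Col4a2 took 231 CPM in HKO and 192 CPM in WT, a ratio of 1.21 (1.09 to 1.34), the opposite direction to the fibrillar sum. Per 100 stellate marker UMIs the pair took 13.2 (12.4 to 14.1) in HKO and 9.42 (8.59 to 10.3) in WT. After thinning, 32.2% of HKO and 24.2% of WT stellate-like nuclei carried a UMI of Col4a1 or Col4a2, beside 7.23% and 6.57% of hepatocyte-like nuclei.

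Lama1, Lamb1 and Lamc1 encode the chains of the laminin of early basement membranes. Lama1 was at 83.0 CPM in the HKO library (74.8 to 91.8, 373 UMIs) and 125 CPM in the WT library (112 to 139, 338 UMIs). It was lower in HKO, with a ratio of 0.663 (0.571 to 0.771), and in hepatocyte-like nuclei it stood at 1.44 (HKO) and 2.48 CPM (WT). Lamb1 was at 46.5 CPM in the HKO library (40.4 to 53.2, 209 UMIs) and 45.2 CPM in the WT library (37.5 to 53.9, 122 UMIs), and its ratio of 1.03 (0.820 to 1.30) gave no direction. Lamc1, the gamma chain common to most laminins, was at 119 CPM in the HKO library (109 to 129.5, 535 UMIs) and 153 CPM in the WT library (138 to 168, 413 UMIs). The ratio of Lamc1 was 0.778 (0.683 to 0.887) here, although it was above 1 in the endothelial-like, macrophage-like and hepatocyte-like classes. With the hepatocyte-like level of each library taken off, the log2 ratio of Lamc1 in stellate-like nuclei went from -0.36 to -1.06.

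Lama2, the alpha chain of the laminin of muscle and vessel walls, went the other way. It was at 39.4 CPM in the HKO library (33.8 to 45.6, 177 UMIs) and 27.4 CPM in the WT library (21.5 to 34.4, 74 UMIs), a ratio of 1.44 (1.09 to 1.91). Lamb2 was at 9.34 CPM in the HKO library (6.73 to 12.6, 42 UMIs) and 5.18 CPM in the WT library (2.83 to 8.69, 14 UMIs), and its ratio of 1.80 (0.965 to 3.57) included 1. The 11 laminin genes together took 327 CPM of stellate-like RNA in HKO and 391.6 CPM in WT, a ratio of 0.835 (0.771 to 0.905). Per 100 stellate marker UMIs the laminin sum was 18.7 (17.7 to 19.8) in HKO and 19.2 (18.0 to 20.6) in WT, so these intervals overlapped.

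**Figure D2:**
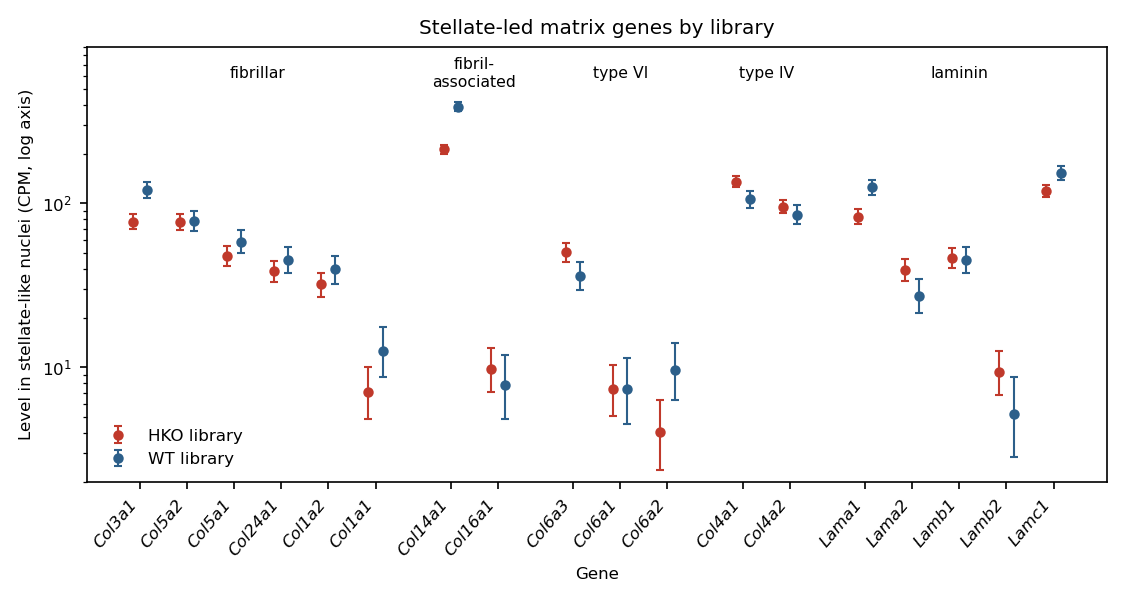
Points give the level in stellate-like nuclei (CPM, log axis) of the genes led by this class, in the HKO and WT libraries, with exact 95% Poisson intervals as bars and genes grouped by type. Col3a1 (77.4 against 121 CPM), Col14a1 (214 against 389 CPM) and Lama1 (83.0 against 125 CPM) lie lower in HKO, while Col4a1 (136 against 106 CPM) and Lama2 (39.4 against 27.4 CPM) lie higher.

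Among the fibril-associated and beaded filament genes, Col14a1 stood lower in HKO and the type VI chains differed in direction. Col14a1, a collagen that decorates the surface of fibres, was at 214 CPM in the HKO library (200.5 to 228, 961 UMIs) and 389 CPM in the WT library (366 to 413, 1051 UMIs). The level in HKO was lower, at a ratio of 0.550 (0.503 to 0.6003), and after thinning 33.0% of HKO and 44.3% of WT stellate-like nuclei carried a Col14a1 UMI. Type VI collagen forms beaded filaments around cells from chains encoded by Col6a1, Col6a2 and Col6a3. Col6a3 was at 50.3 CPM in the HKO library (43.9 to 57.3, 226 UMIs) and 36.3 CPM in the WT library (29.4 to 44.2, 98 UMIs), a ratio of 1.39 (1.09 to 1.78). Col6a2 was at 4.004 CPM in the HKO library (2.37 to 6.33, 18 UMIs) and 9.62 CPM in the WT library (6.29 to 14.1, 26 UMIs), a ratio of 0.416 (0.215 to 0.789), and Col6a1 stood at 7.34 (HKO) and 7.40 CPM (WT). Col16a1, which binds near fibres and basement membranes, stood at 9.79 (HKO) and 7.77 CPM (WT).

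Read against all genes, the matrix genes of stellate-like nuclei held about as many large differences as the background, given how few genes were involved. Of the 33 with at least 30 UMIs in the class, 2 (6.06%) were 2-fold or more higher in HKO, Col12a1 and Col20a1, and 4.17% of all 11426 genes past the same floor were. In the lower direction 3 of the 33 (9.09%), Col6a2, Col23a1 and Lama3, were 2-fold or more lower, and 4.94% of all genes were. Both shares of the matrix genes rest on 2 or 3 genes. The median log2 ratio of the 33 was -0.16 and that of all genes 0.13. Col12a1, a fibril-associated collagen of stressed tissue, was at 8.90 CPM in HKO (6.36 to 12.1, 40 UMIs) against 3.70 CPM in WT (1.77 to 6.81, 10 UMIs). Col20a1, also fibril-associated, was at 6.23 CPM in HKO (4.14 to 9.002, 28 UMIs) against 2.22 CPM in WT (0.815 to 4.83, 6 UMIs). The transmembrane Col23a1 was at 2.67 CPM in HKO (1.38 to 4.66, 12 UMIs) against 6.66 CPM in WT (3.95 to 10.5, 18 UMIs). Of these genes, the stellate-like levels of Col12a1, Col20a1 and Lama3 (4.67 (HKO) and 9.99 CPM (WT)) did not exceed those of hepatocyte-like nuclei by 1.5 times in either library, with stellate to hepatocyte ratios in HKO and WT of 0.688 and 1.28, 1.34 and 0.361 and 0.677 and 0.910.

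Nuclei within the stellate-like cluster were not alike, and fibrillar genes were highest in a small sub-cluster found in both libraries. Sub-clustering without the matrix genes gave 5 groups, of which sub-cluster 0 was mostly WT (31 HKO and 457 WT nuclei) and sub-clusters 1 (479 and 0) and 2 (344 and 1) were HKO. Hepatocyte genes such as Mup11 and Orm2 led sub-cluster 0, and hepatocyte markers summed to 23734 CPM there, to 13316 CPM in sub-cluster 1 and to 9039 CPM in sub-cluster 2. Sub-cluster 4 (152 and 63) was led by Ncam1, Il1rapl1, Sulf1 and the cytokinesis gene Prc1. Sub-cluster 3 (165 and 107) was led by macrophage and endothelial genes, with endothelial markers at 1122 CPM and macrophage markers at 850 CPM, against 275 and 294 CPM in sub-cluster 0. In sub-cluster 4 the fibrillar sum was 797 CPM in HKO and 921 CPM in WT; in sub-cluster 0 of WT it was 326 CPM, in sub-cluster 1 of HKO 166 CPM and in sub-cluster 2 of HKO 599 CPM.

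**Figure D3:**
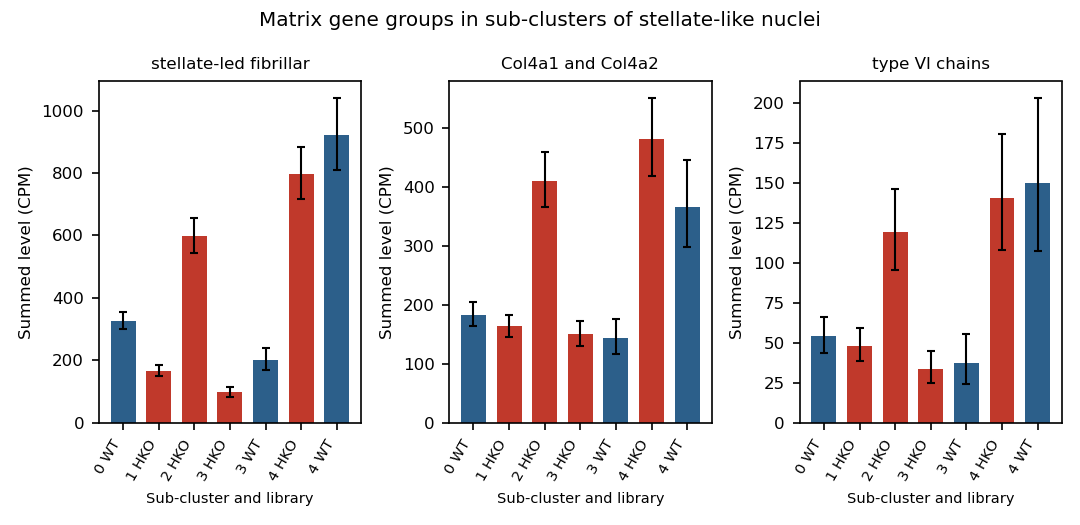
Bars give the summed level (CPM) of matrix gene groups in each sub-cluster of stellate-like nuclei with at least 50 nuclei in a library, by library, with exact 95% Poisson intervals. The fibrillar bars are highest in sub-cluster 4, with 797 CPM (HKO) and 921 CPM (WT).

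Most fibrillar genes were highest in sub-cluster 4 too. There, over both libraries, Col1a1 stood at 36.4 CPM, 5.90 times its level in the other sub-clusters together. Col5a2 stood at 252 CPM (4.31 times), Col1a2 at 102 CPM (3.72 times), Lama2 at 99.4 CPM (3.58 times) and Col3a1 at 262 CPM (3.47 times). Of the 6 fibrillar genes, Col5a1 did not rank highest there, at 95.2 CPM against 96.2 CPM in sub-cluster 2. Lama1, Lamb1 and Lamc1 were also highest in sub-cluster 2, at 221, 113 and 196 CPM, against 115, 82.6 and 141 CPM in sub-cluster 4. Per 100 stellate marker UMIs, the fibrillar sum was 31.0 (28.3 to 34.0) in sub-cluster 4 and between 13.5 and 14.8 in the other 4. The sum of Lama1, Lamb1 and Lamc1 on the same scale was 12.5 in sub-cluster 4 and between 13.2 and 18.5 in the others. The marker-scaled fibrillar sum of sub-cluster 4 was lower in HKO, 25.6 (22.7 to 28.9), than in WT, 43.9 (37.7 to 51.0). The marker level behind this scale was itself unequal there, 3107 CPM for HKO against 2097 CPM for WT. Before scaling, the fibrillar intervals overlapped, with 715 to 884 CPM for HKO against 811 to 1042 CPM for WT. The scaled sum of all described genes was lower in HKO as well, 90.9 against 142.5. How much of the scaled fibrillar gap came from the markers was not tested.

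Markers of other mesenchymal cells moved with sub-cluster 4. Smooth muscle markers summed to 111 CPM there and to between 23.5 and 44.8 CPM elsewhere, portal fibroblast markers to 60.2 CPM against 13.5 to 32.9 CPM, and mesothelial markers to 305 CPM against 83.0 to 241 CPM. The mesothelial list also summed to 162 CPM (HKO) and 375 CPM (WT) in hepatocyte-like nuclei. The part of free RNA in its level in sub-cluster 4 was not tested. Stellate markers stood at 2720 CPM in sub-cluster 4, between the 970 CPM of sub-cluster 3 and the 4037 CPM of sub-cluster 2. The cell cycle genes Mki67, Top2a, Cenpe and Prc1, chosen after their values were seen, summed to 951 CPM in sub-cluster 4 and to between 69.2 and 168 CPM in the others. Their part in the fibrillar levels was not tested.

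In endothelial-like nuclei the matrix genes with the most UMIs after Col18a1 were Col4a1, Col13a1, Lama4, Col4a2 and Lamc1. Col13a1, a transmembrane collagen of cell junctions, was at 73.5 CPM in the HKO library (67.7 to 79.5, 610 UMIs) and 59.3 CPM in the WT library (52.9 to 66.3, 309 UMIs). It stood 41.4-fold above hepatocyte-like nuclei in HKO and 27.2-fold in WT. The ratio of the libraries was 1.24 (1.08 to 1.43), but with barcodes of at least 2000 UMIs only, the log2 ratio went from 0.31 to -0.11, so that its direction depended on the depth minimum. After thinning, 13.0% of HKO and 9.72% of WT endothelial-like nuclei carried a Col13a1 UMI; unthinned, the shares were 21.1% and 21.9%.

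Lama4, the alpha chain of the laminin under endothelium, was at 73.3 CPM in the HKO library (67.6 to 79.4, 609 UMIs) and 51.0 CPM in the WT library (45.1 to 57.6, 266 UMIs). It was higher in HKO, at a ratio of 1.44 (1.24 to 1.67), and 12.9% of HKO and 9.36% of WT nuclei carried a UMI after thinning. The endothelial-like sub-clusters split by library: 0 (1165 HKO and 21 WT nuclei) and 3 (4 and 286) had high endothelial marker sums, and 1 (1074 and 0) and 2 (25 and 776) low ones. Selenbp2 and Nrg4 were among the leading genes of sub-cluster 1, and Gm12718 and Mug2 among those of sub-cluster 2. The first pair also led hepatocyte-like cluster 3 of HKO, and the second hepatocyte-like cluster 0 of WT. Median UMIs were 3636.5 and 4122 in sub-clusters 1 and 2, against 1669 and 2406.5 in sub-clusters 0 and 3. Lama4 stood at 153.9 CPM in the HKO nuclei of sub-cluster 0 and 123.6 CPM in the WT nuclei of sub-cluster 3, and at 41.3 CPM in the HKO nuclei of sub-cluster 1 and 36.8 CPM in the WT nuclei of sub-cluster 2. The part of this mix in the class ratios was not tested. Lamc1, whose gamma chain joins that laminin, was at 70.1 CPM in the HKO library (64.5 to 76.0, 582 UMIs) and 40.5 CPM in the WT library (35.2 to 46.3, 211 UMIs), also higher in HKO at 1.73 (1.48 to 2.04). Lama5, the alpha chain of mature vessel laminin, was at 10.8 CPM in HKO (8.71 to 13.3, 90 UMIs) against 9.98 CPM in WT (7.45 to 13.1, 52 UMIs), and Lama3, an alpha chain of epithelial laminins, at 15.4 CPM in HKO (12.9 to 18.3, 128 UMIs) against 16.9 CPM in WT (13.5 to 20.8, 88 UMIs); neither differed beyond counting error. The 11 laminin genes took 185 CPM of endothelial-like RNA in HKO and 133 CPM in WT, a ratio of 1.39 (1.27 to 1.52).

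Type IV collagen of endothelial-like nuclei did not show that difference. Col4a1 was at 75.6 CPM in the HKO library (69.8 to 81.8, 628 UMIs) and 78.7 CPM in the WT library (71.2 to 86.7, 410 UMIs). Col4a2 was at 61.4 CPM in the HKO library (56.2 to 67.0, 510 UMIs) and 63.1 CPM in the WT library (56.5 to 70.3, 329 UMIs). The ratio of their sum was 0.966 (0.880 to 1.06), and 22.5% of HKO and 21.2% of WT nuclei carried a UMI of either gene after thinning. The summed endothelial markers were 3269 CPM in HKO and 2864 CPM in WT, a ratio of 1.14.

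Of 26 matrix genes with at least 30 UMIs in endothelial-like nuclei, only Col12a1 (3.85%) was 2-fold or more higher in HKO, where 4.33% of all genes were. A further 3 (11.5%) were 2-fold or more lower, Col6a6, Col14a1 and Col23a1, where 5.19% of all genes were. Col12a1 stood at 8.91 (HKO) and 2.69 CPM (WT), Col14a1 at 5.42 (HKO) and 10.9 CPM (WT), Col23a1 at 2.29 (HKO) and 5.18 CPM (WT) and Col6a6 at 2.05 (HKO) and 4.22 CPM (WT). The median log2 ratio of the 26 was -0.14 and that of all genes 0.15.

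A small endothelial sub-cluster differed in its matrix genes from the rest. Sub-cluster 4 of the endothelial-like class (47 HKO and 28 WT nuclei) was led by Thsd7a, Mecom, Vwf, Fbln2 and the elastin gene Eln, and markers of large vessel endothelium summed to 533 CPM there and to between 49.3 and 123 CPM in the others. Portal fibroblast markers also stood higher, at 159.9 CPM against 3.598 to 7.68 CPM, and their part in the levels that follow was not tested. In it Col8a1, a short-chain collagen of vessel walls, stood at 131 CPM, 26.8-fold (16.4 to 42.6) above the other endothelial-like nuclei, from 27 UMIs. Col5a2 also had 27 UMIs there and stood 11.9-fold (7.60 to 18.1) higher, and Col14a1 stood 6.24-fold higher. Col13a1 and Lama4 instead were highest in sub-clusters 0, almost all HKO, at 153 CPM each, and 3, almost all WT, at 162 and 123 CPM. These sub-clusters also had the highest endothelial marker sums, 7181 and 7205 CPM, against 1735 to 2612 CPM in the other 3, and the part of that difference in the matrix gene levels was not tested.

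Cholangiocyte-like nuclei, from the bile duct epithelium, led the type IV chains Col4a3, Col4a4 and Col4a5 and the laminin chains Lama4, Lama5 and Lamc3, but with 121 HKO and 31 WT nuclei their counts were small. Lamc3 had 38 UMIs in HKO (122 CPM) and 3 in WT (29.4 CPM). Col4a5 had 36 UMIs (115 CPM) and 6 (58.8 CPM). Lama4 had 28 UMIs (89.8 CPM) and 4 (39.2 CPM), and Lama5 11 UMIs (35.3 CPM) and 4 (39.2 CPM). Col4a3 had 5 and 2 UMIs and Col4a4 3 and 4. Col27a1, a fibrillar collagen known from cartilage, had 24 UMIs (77.0 CPM) and 8 (78.4 CPM). No library ratio is given for this class. When the WT library was clustered on its own, the corresponding cluster of 35 nuclei had 8 cholangiocyte and 6 mesothelial markers raised, and the part of mesothelial nuclei in the WT levels was not tested.

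Hepatocyte-like nuclei led 5 genes, by the mean of the libraries, but were highest in both libraries for Col18a1 alone. Col15a1 was highest in T/NK-like nuclei in HKO, Col5a3 in dendritic-like nuclei in WT, and Col12a1 and Col25a1 in other classes in each library. Col18a1 had 53482 UMIs over all barcodes. Col18a1 encodes type XVIII collagen, a basement membrane zone proteoglycan that liver is known to make in quantity and the source of endostatin. It was at 427 CPM in the HKO library (418 to 436, 8913 UMIs) and 486 CPM in the WT library (479 to 492, 20919 UMIs), a ratio of 0.879 (0.858 to 0.901). The other classes carried it at comparable levels, 297 (HKO) and 332 CPM (WT) in stellate-like and 348 (HKO) and 409 CPM (WT) in endothelial-like nuclei, with hepatocyte-like nuclei highest of the named classes in each library. Free RNA from hepatocytes was not subtracted from those levels, and the annotation places Slc19a1 over part of the gene.

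Col5a3, a chain of a minor form of type V collagen, was at 41.9 CPM in the HKO library (39.2 to 44.8, 875 UMIs) and 56.2 CPM in the WT library (54.0 to 58.5, 2420 UMIs), lower in HKO at 0.746 (0.690 to 0.806). Col15a1, the second multiplexin of basement membrane zones, was at 18.3 CPM in the HKO library (16.5 to 20.2, 382 UMIs) and 20.3 CPM in the WT library (19.0 to 21.7, 876 UMIs), and its ratio of 0.900 (0.796 to 1.02) included 1. Col25a1, a transmembrane collagen first described in brain, was at 18.2 CPM in the HKO library (16.4 to 20.1, 380 UMIs) and 21.8 CPM in the WT library (20.5 to 23.3, 941 UMIs), a ratio of 0.833 (0.738 to 0.9398). The differences of Col5a3 and Col25a1 were small and in the same direction.

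Col8a1 and Col12a1 were the matrix genes with the highest HKO to WT ratios in hepatocyte-like nuclei. Col8a1 was at 20.9 CPM in the HKO library (19.0 to 22.9, 436 UMIs) and 2.30 CPM in the WT library (1.87 to 2.80, 99 UMIs). The ratio was 9.09 (7.29 to 11.4), higher in HKO. Col12a1 was at 12.9 CPM in the HKO library (11.4 to 14.6, 270 UMIs) and 2.90 CPM in the WT library (2.42 to 3.46, 125 UMIs), with a ratio of 4.46 (3.59 to 5.56). Both ratios stayed past 2-fold in all 15 alternative analyses, with log2 ratios between 2.62 and 3.22 for Col8a1 and between 1.83 and 2.39 for Col12a1. Lamc1 was at 62.8 CPM in HKO (59.5 to 66.3, 1311 UMIs) against 34.9 CPM in WT (33.2 to 36.8, 1505 UMIs), at 1.80 (1.67 to 1.94) under the 2-fold mark.

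Since most hepatocyte-like nuclei of the 2 libraries fell into different clusters, Col8a1 was also compared between clusters with the same zonal marker. Cluster 10 (HKO, 685 nuclei) and cluster 8 (WT, 1471 nuclei) both had among their 10 leading genes Glul, glutamine synthetase, the enzyme of hepatocytes next to the central vein, at 1197 and 1122 CPM. Col8a1 was itself among the leading genes of cluster 10, although it took no part in the clustering. In those clusters Col8a1 stood at 109 CPM (97.1 to 121; 330 UMIs) and 9.36 CPM (7.22 to 11.9; 65 UMIs), a ratio of 11.6 (8.87 to 15.4). A Col8a1 UMI was present in 19.6% of cluster 10 nuclei and 2.86% of cluster 8 nuclei. In the other hepatocyte-like clusters Col8a1 was lower than in the Glul-led cluster of the same library. It stood at 3.198 CPM in cluster 3 of HKO and at 0.848 CPM in cluster 0 of WT. Cluster 5 held nuclei of both libraries (545 HKO, 1272 WT). Its Col8a1 level was 13.7 CPM (9.48 to 19.1; 34 UMIs) for HKO against 1.37 CPM (0.626 to 2.60; 9 UMIs) for WT. The higher Col8a1 level of HKO was thus also seen in a cluster that Glul did not lead. Top2a and Prc1 were among the leading genes of cluster 5, and Glul stood there at 70.5 CPM for HKO and 96.6 CPM for WT. Whether the Col8a1 UMIs of cluster 5 came from Glul-rich nuclei or free RNA was not tested. With each library clustered on its own, the Glul-led nuclei (543 HKO and 1054 WT) gave 135 and 12.2 CPM, a ratio of 11.1 (8.39 to 14.8).

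Col12a1 lacked the peak that Col8a1 had in the Glul-led clusters. It stood at 10.2, 22.5 and 18.1 CPM in HKO clusters 3, 5 and 10, and between 2.64 and 3.17 CPM in the hepatocyte-like clusters of WT with at least 100 nuclei and in WT cluster 4. In the Glul-led clusters its ratio was 5.71 (3.43 to 9.84), beside 1.01 for Col18a1, 1.07 for Glul and 1.75 for Lamc1. Col12a1 was also 2-fold or more higher in HKO in the stellate-like, endothelial-like and macrophage-like classes, at levels of 8.90 to 10.5 CPM in HKO that lay below the 12.9 CPM of hepatocyte-like nuclei. Whether those classes hold Col12a1 RNA of their own or free RNA was not tested.

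**Figure D4:**
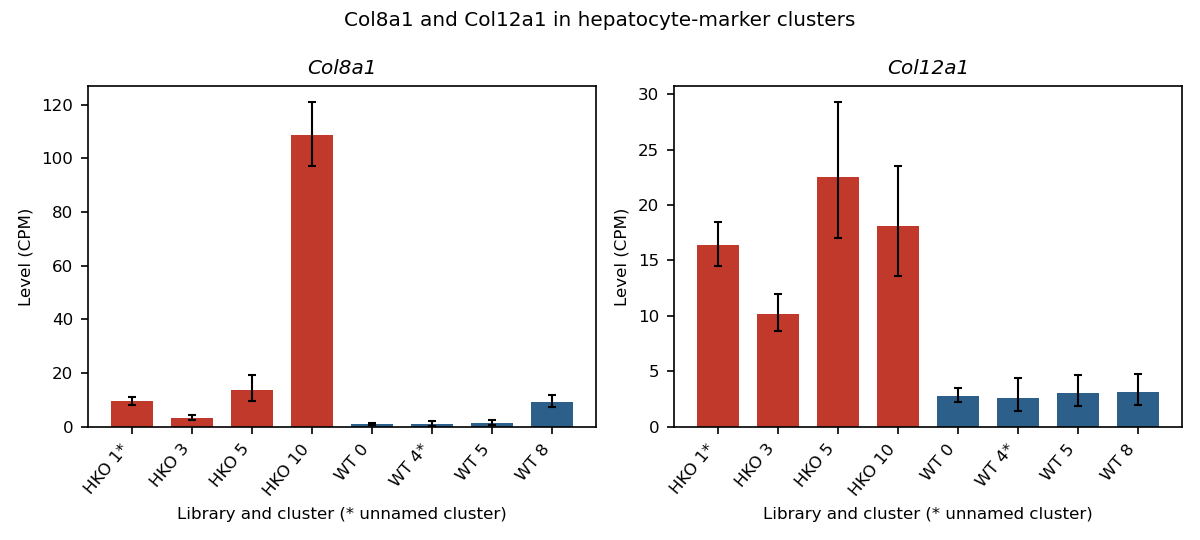
Bars give the level (CPM) of Col8a1 and Col12a1 in clusters with hepatocyte markers that hold at least 100 nuclei of a library, by library and cluster number, with exact 95% Poisson intervals; an asterisk marks the unnamed clusters 1 and 4. Col8a1 is highest in Glul-led cluster 10 of HKO (109 CPM), whereas Col12a1 is above 10 CPM in each HKO cluster shown and under 4 CPM in each WT cluster.

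Of 36 matrix genes with at least 30 UMIs in hepatocyte-like nuclei, Col8a1 and Col12a1 were the 2 (5.56%) that were 2-fold or more higher in HKO, and 4.74% of all 14205 genes were. Another 5 (13.9%) were 2-fold or more lower, and 6.15% of all genes were: Col1a1, Col1a2, Col3a1, Col6a1 and Col6a3. These 5 are stellate-led genes. The lowest ratio was that of Col1a1, 0.182 (0.0646 to 0.417), from 6 and 68 UMIs. Hepatocyte-like levels of the 5 ran from 0.287 to 2.01 CPM in HKO and from 0.673 to 5.97 CPM in WT. Across 13 stellate-led genes the hepatocyte-like level was a median 2.58% of the stellate-like level in HKO and 3.56% in WT, and across 9 stellate markers it was 2.30% and 3.95%. The summed stellate markers in hepatocyte-like nuclei were 52.2 CPM in HKO and 150 CPM in WT, a ratio of 0.348. The median log2 ratio of the 36 was -0.30 and that of all genes 0.12.

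In macrophage-like nuclei, which came from cluster 6 in HKO and cluster 9 in WT, 4 of 23 matrix genes (17.4%) were 2-fold or more higher in HKO, and 3.98% of all genes were. They were Col8a1 and Col12a1 again, Col11a2 and Col9a3. Col11a2, a fibrillar chain known from cartilage, was at 7.20 CPM in the HKO library (5.34 to 9.49, 50 UMIs) and 2.45 CPM in the WT library (1.37 to 4.05, 15 UMIs), a ratio of 2.93 (1.62 to 5.63). Col9a3, a fibril-associated chain also of cartilage, was at 3.17 CPM in HKO (1.99 to 4.80, 22 UMIs) against 1.47 CPM in WT (0.673 to 2.80, 9 UMIs), with a ratio of 2.15 (0.952 to 5.31); its gene is overlapped by Tcfl5. Col6a6 was the single gene (4.35%) that was 2-fold or more lower, where 4.67% of all genes were, at 3.02 CPM in HKO (1.87 to 4.62, 21 UMIs) against 8.34 CPM in WT (6.21 to 11.0, 51 UMIs). Col7a1, which encodes the anchoring fibrils of skin, had its highest level in this class with 10 HKO and 6 WT UMIs. The median log2 ratio of the 23 was -0.35 and that of all genes 0.09. In T/NK-like nuclei, where Lamb3 stood at 13.4 CPM (HKO) and 26.5 CPM (WT), none of the 9 genes past the floor differed 2-fold or more, while 7.41% of all genes were higher and 4.90% lower. Lamb3 had 21 HKO and 14 WT UMIs in that class, and the annotation places 4 other counted genes over part of it, Hsd11b1 and G0s2 among them.

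**Figure D5:**
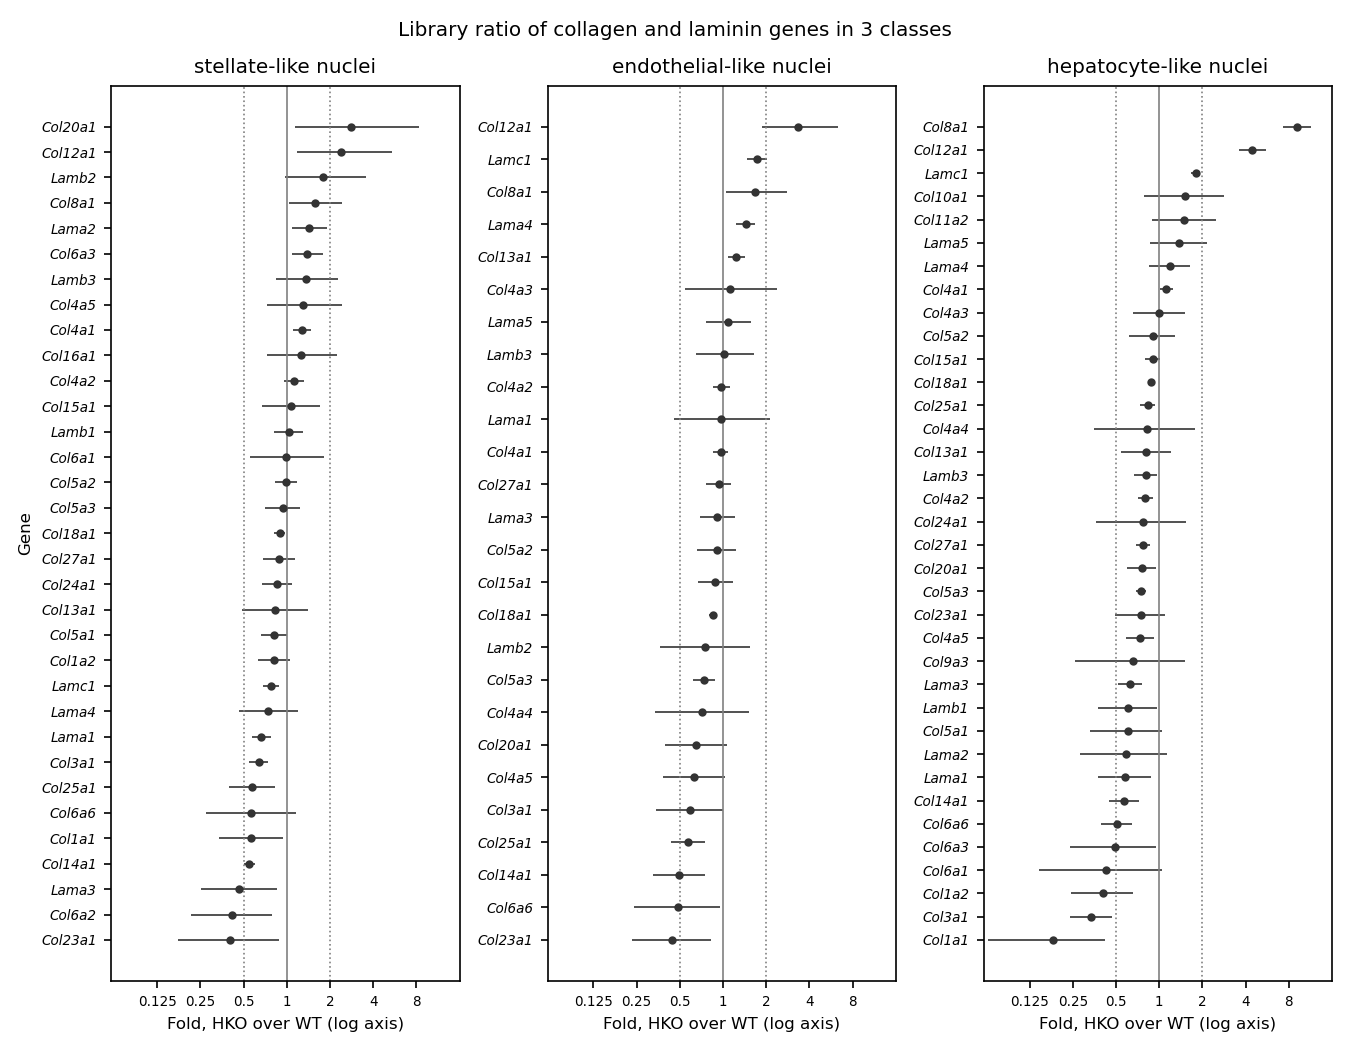
Points give the HKO over WT fold (log axis) of each collagen and laminin gene with at least 30 UMIs in stellate-like, endothelial-like and hepatocyte-like nuclei, bars are exact conditional 95% intervals, and dotted lines mark 2-fold either way. Col8a1 (9.09) and Col12a1 (4.46) are the highest folds in hepatocyte-like nuclei and Col1a1 (0.182) the lowest, and most stellate-like genes lie between the dotted lines.

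Genes that act on collagens and laminins were followed through 5 lists. Of 21 measured genes for collagen-making enzymes and chaperones in stellate-like nuclei, 1 was 2-fold or more higher in HKO, where 4.17% of all genes were, and none lower, where 4.94% were. That gene was P4ha1, the catalytic subunit of prolyl 4-hydroxylase, which stabilises the collagen helix, at 189.5 CPM (HKO) and 75.1 CPM (WT), a ratio of 2.52 (2.16 to 2.95). P4ha1 was also higher in endothelial-like (2.97), macrophage-like (2.45) and hepatocyte-like nuclei (2.96). P4ha2, its paralog, had a ratio of 1.87 (1.07 to 3.45) in stellate-like nuclei and of 3.27 in endothelial-like nuclei. Bmp1, which trims procollagen, had a ratio of 1.94, and Ppib, a helper of helix folding, a ratio of 0.537 in stellate-like nuclei. In hepatocyte-like nuclei 3 of 22 such genes were higher and 2 lower (P3h3 and Loxl4), beside 4.74% and 6.15% of all genes, and in endothelial-like nuclei 3 of 17 were higher (P4ha1, P4ha2 and Adamts2) and none lower, beside 4.33% and 5.19%.

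The same background of 4.17% higher and 4.94% lower holds for the other lists in stellate-like nuclei, each of which had at most 1 gene past 2-fold. Among 9 measured receptors, Itga10, an integrin alpha chain for collagen, was the 1 that passed 2-fold, with 42 UMIs in HKO and 4 in WT, a ratio of 6.31 (2.29 to 24.2), and Ddr2, the fibrillar collagen receptor kinase, had a ratio of 0.583. Itga10 was also 2-fold or more higher in HKO in endothelial-like and hepatocyte-like nuclei, and was not among the genes past 2-fold in macrophage-like nuclei. Among the 6 measured other basement membrane genes, Smoc2 passed 2-fold with 41 and 11 UMIs, Agrn had a ratio of 1.53, Sparc 0.797 and Nid2 0.563. None of the 8 measured matrix proteases and inhibitors passed 2-fold in stellate-like nuclei, where Mmp19 had a ratio of 1.72, Adamts1 1.68, Mmp14 1.30 and Adamts5 0.580. Of 10 other structural genes, Vtn (vitronectin, a plasma protein of hepatocytes) was the 1 lower, at 228 CPM (HKO) and 749.9 CPM (WT), and Vtn had a similar ratio in hepatocyte-like nuclei, 0.356. Fn1, fibronectin, had a ratio of 0.680 in stellate-like and 0.663 in hepatocyte-like nuclei.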

How the data were processed

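Nuclear RNA of liver from 1 Sox9f/f (WT) and 1 Sox9HKO library, taken 48 h after partial hepatectomy, was analysed from the deposited matrices of raw UMI counts per gene and barcode. Per the submitters' processing notes, Cell Ranger 5.0.0, STAR and Seurat 3.2.0 were used with build GRCm38; those notes give no role for each. Gene coordinates are GRCm38.

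Barcodes with under 500 genes or over 10% mitochondrial UMIs were removed. The kept nuclei were clustered on 2000 variable genes, without the collagen and laminin genes (17 of which would have been among them), with 30 components, 15 neighbours and a Leiden resolution of 0.5. Clusters were named from marker lists for hepatocyte, endothelial, macrophage, stellate, cholangiocyte, T/NK, B, dendritic, neutrophil, erythroid and mesothelial cells. A cluster no other class won was called hepatocyte-like if at least 3 of 15 hepatocyte markers stood above the clusters placed before it. Those were the clusters of other classes and any earlier cluster with hepatocyte markers. Such markers numbered 14, 10, 3, 5 and 11 in clusters 0, 3, 5, 8 and 10. A cluster led by another class or by mitochondrial genes stayed unnamed. Scrublet (expected rate 0.1) marked 0 barcodes in each library, so doublets were in effect not removed. UMIs were summed by class and library and scaled to CPM. Log2 ratios have 0.5 CPM added to both levels, and levels are not scaled by gene length, so they compare classes and libraries within a gene. A gene was counted as different in a class when it had at least 30 UMIs there and a ratio of 2-fold or more.

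Genes named with full values had at least 100 UMIs in their leading class, or passed 2-fold in a class with at least 100 nuclei per library; up to 4 genes of each other matrix list were named by the size of their stellate-like ratio. Levels for further genes (Lamb2, Col6a1, Col16a1, Lama5 and the cholangiocyte-led chains) are given to complete a family. The values of 1 gene are not reported here. The genes and lists were chosen with earlier results of these data known. On simulated counts for the 11426 genes of stellate-like nuclei, 99% of 4-fold and 98% of 3-fold changes passed 2-fold, 0.918% of unchanged genes did, and 95.9% of intervals covered the true ratio. In all 15 alternatives were run, 12 planned and 3 chosen after seeing the data. Python 3.11.15, scanpy 1.11.5, leidenalg 0.10.2, scipy 1.17.1 and, for TMM and median ratio factors alone, edgeR 4.0.16 in R 4.3.3 were used.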

Additional observations from a re-analysis of the deposited data

Results flagged for a closer look

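In 3 genes the library ratio pointed in opposite directions in different classes, with intervals on opposite sides of 1. None of these differences was tested, since each class has 1 library per group, and the classes share those libraries.

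Lamc1 was higher in HKO in endothelial-like nuclei (ratio 1.73), macrophage-like nuclei (1.55) and hepatocyte-like nuclei (1.80) and lower in stellate-like nuclei (0.778), the class with its highest level. Col6a3 had a ratio of 1.39 in stellate-like nuclei and of 0.495 in hepatocyte-like nuclei, where it had 12 and 50 UMIs. Col20a1 had a ratio of 2.80 in stellate-like nuclei, from 28 and 6 UMIs, and of 0.755 in hepatocyte-like nuclei.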

How the results depend on the processing

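No paired analysis was possible because each group has a single library. Across the 15 alternatives, 507 of the single-gene values stayed within the counting interval of the value reported and 39 moved outside it. In 1 further case a ratio whose interval lay on one side of 1 turned: Col13a1 in endothelial-like nuclei, from a log2 ratio of 0.31 to -0.11 with at least 2000 UMIs per barcode. The number of genes led by stellate-like nuclei stayed between 17 and 21, and by endothelial-like nuclei between 2 and 3. In stellate-like nuclei, the 2 genes that were 2-fold higher became 1 with at least 2000 UMIs per barcode, 1 with the hepatocyte-like level subtracted, 1 without sub-cluster 3, and 0 with barcodes holding markers of another class left out, with thinned nuclei or with a floor of 100 UMIs. The 3 genes that were lower became 1 with each library clustered on its own, 1 with mixed barcodes left out, 1 with thinned nuclei and 0 with a floor of 100 UMIs. In endothelial-like nuclei, the 1 higher gene became 2 with a floor of 10 UMIs or the hepatocyte-like level subtracted and 0 with a floor of 100, where 1 of the 3 lower genes was left. Col12a1 and Col20a1 in stellate-like nuclei stayed past 2-fold in each of the 11 and 9 alternatives in which they could be measured; in the others they fell under the UMI floor or had no level above the hepatocyte-like one to compare. Of the lower genes, Col6a2 stayed past 2-fold in 11 of 12 such alternatives, Lama3 in 9 of 11 and Col23a1 in 7 of 8. Several small ratios, all with intervals that include 1, had no stable direction: Col5a2 kept its sign in 8 of 15 alternatives, Lamb1 and endothelial-like Lama3 in 12, Col5a1 in 13, and Col1a2, Col4a2 and Col15a1 in 14. Median ratio scaling shifted the log2 ratios by -0.13 in stellate-like, -0.15 in endothelial-like and -0.12 in hepatocyte-like nuclei, and took the counts of all genes that were higher and lower in stellate-like nuclei from 476 and 564 to 337 and 731. With 1 library per group, intervals leave out the spread between animals, and differences under about the width of an interval were not detectable at this depth.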
